A study of Mus musculus with 24 samples.

Results

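The comparison described here sets lungs of BALB/c mice taken 24 h after intratracheal saline against lungs of the same strain taken 14 d after intratracheal saline. It asks what differs between control lungs soon and long after the instillation, when no drug was given. It used 4 of the 24 arrays of the series, 2 for each time, marked a and b and chosen by their titles. The series measured total RNA from mouse lung with 1 Affymetrix array per sample, for BALB/c and C57BL/6J mice given bleomycin at 1.5 U per kg or saline, at 24 h, 72 h or 14 d, with 2 arrays in each of 12 groups. Neither group compared carries a transgene or a drug, and strain, route and vehicle are common to both. The titles also hold a numeral before the array letter, and this numeral differs between the 24 h and the 14 d arrays. Its meaning is not given. It cannot be separated from time in this comparison, and its part in the differences was not tested. The descriptions of the 24 h arrays mention bleomycin or saline while their titles say saline, and the titles were followed. The labels give no age, sex or number of animals and do not say whether a and b came from separate mice, so every p-value measures the spread between arrays of a group, which may be technical.

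Fluid delivered into the trachea reaches the airways and alveoli, where epithelial cells and macrophages sense injury and release chemokines. Cxcl1 and Cxcl2 draw neutrophils, which store S100a8 and S100a9 protein, and epithelium answers interleukin signals with secreted proteins of the acute phase such as lipocalin 2 (Lcn2) and serum amyloid A3 (Saa3). Metallothioneins Mt1 and Mt2 bind zinc and other metals and are induced by metals, glucocorticoids and inflammatory signals. The lung also has a circadian clock, in which Arntl and Clock drive transcription of Per and Cry genes and of output factors such as Dbp, so 2 lungs taken at different hours of the day can differ without any treatment.

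Values are linear intensities, 1 per probe set (a group of oligonucleotides against 1 or more transcripts). Differences are 24 h minus 14 d of log2(intensity + 92), with the standard error (SE) from a limma model of all 24 arrays. A probe set was called at a limma adjusted p under 0.05 (Benjamini-Hochberg over 8710 probe sets). Median intensities of the 4 arrays lay between 363.8 and 391.8. H2-Ea, which is not transcribed in C57BL/6J, was bright on the 4 arrays (4116 to 5854), as fits BALB/c. The saline arrays of 72 h were in reverse for this gene, with 48.3 and 89.5 under the BALB/c label and 3622 and 4821 under the C57BL/6J label, so those libraries go against their labels. They entered the comparison through the shared estimate of spread and the intensity filter, and with them left out of the fit 88 probe sets were called in place of 110. The lung markers Sftpb, Scgb1a1, Ager, Foxj1 and Pecam1 were above the filter on the 4 arrays. Sftpc, the surfactant gene of alveolar type 2 cells, had 286 to 594 against 43230 and 78641 on the C57BL/6J saline arrays of 24 h. Those 2 arrays were the extreme of the series, as no other array passed 21462 on any probe set.

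The 2 arrays of 24 h were unlike each other for genes of acute inflammation. The 25 genes with the largest excess of array b over array a differed by 1.995 to 4.49 on the log2 scale, and this choice was made after their values were seen. Among them were the chemokines Cxcl1, Cxcl2, Cxcl5, Ccl2 and Ccl3, the neutrophil genes S100a8, S100a9 and Mmp8, the acute phase genes Saa2, Saa3, Lcn2 and Orm1, the cytokine gene Il1b and both metallothioneins. On 2 of the 25 genes (Acod1 and Saa2) the arrays of 14 d also differed from each other by more than 1.

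The proximal promoters of 4 of these genes are shown because they carry letters of the 2 kinds of element for which the inducible chemokines and the metallothioneins are known. In Cxcl1 and Cxcl2, which are neighbours on chromosome 5, capitals mark a match to the NF-kappaB consensus on either strand. In Mt1 and Mt2, neighbours on chromosome 8, capitals mark TGCACNC, a form of the metal response element core, on either strand. Runs of the form TGCGCNC are present in both windows and are not marked or counted.
Cxcl1, chr5:90890995-90891294, plus strand: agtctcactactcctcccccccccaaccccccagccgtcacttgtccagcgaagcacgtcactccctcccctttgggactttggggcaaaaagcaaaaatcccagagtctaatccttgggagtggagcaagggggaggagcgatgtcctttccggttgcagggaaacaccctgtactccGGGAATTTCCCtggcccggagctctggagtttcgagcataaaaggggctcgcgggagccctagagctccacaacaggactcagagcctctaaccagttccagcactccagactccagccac
Cxcl2, chr5:90903649-90903948, plus strand: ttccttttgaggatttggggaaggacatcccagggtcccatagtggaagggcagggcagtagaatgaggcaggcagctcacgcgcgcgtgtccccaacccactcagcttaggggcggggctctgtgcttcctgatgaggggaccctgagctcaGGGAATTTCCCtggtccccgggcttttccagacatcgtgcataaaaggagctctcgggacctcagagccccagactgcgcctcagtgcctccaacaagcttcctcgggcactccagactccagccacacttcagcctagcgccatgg
Mt1, chr8:94178839-94179138, plus strand: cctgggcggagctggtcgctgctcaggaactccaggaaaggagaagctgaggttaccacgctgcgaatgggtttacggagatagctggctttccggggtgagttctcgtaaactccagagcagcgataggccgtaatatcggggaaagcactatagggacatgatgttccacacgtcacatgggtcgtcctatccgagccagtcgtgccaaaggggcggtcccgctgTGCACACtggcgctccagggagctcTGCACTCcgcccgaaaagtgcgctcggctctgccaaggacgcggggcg
Mt2, chr8:94172368-94172667, plus strand: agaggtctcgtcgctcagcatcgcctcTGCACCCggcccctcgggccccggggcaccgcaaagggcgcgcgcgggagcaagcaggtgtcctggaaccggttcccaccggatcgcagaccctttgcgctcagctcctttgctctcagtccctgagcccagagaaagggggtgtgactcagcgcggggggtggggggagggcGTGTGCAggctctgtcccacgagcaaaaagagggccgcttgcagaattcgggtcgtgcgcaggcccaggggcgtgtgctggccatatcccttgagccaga
These windows run from 250 bases before to 50 bases after the annotated start, from RefSeq on GRCm38.p6. The kappaB run begins 71 bases before the start in Cxcl1 and 97 bases before it in Cxcl2, and its letters are the same in both. Mt2 holds TGCACNC matches beginning 223 and 50 bases before its start. Mt1 holds 1 such match 23 bases before its start and another after it. Among 32851 promoter windows of this length, 4.51% held a kappaB match and 12.6% held TGCACNC. A match describes letters and not a bound site.

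Cxcl1 read 181 on array a and 3719.6 on array b of 24 h, against 273 and 256 on the arrays of 14 d. Cxcl2 read 105 and 1478 at 24 h, against 106 and 154 at 14 d. Array a thus lay at the level of 14 d for both chemokines, and array b stood more than 2 log2 units above it. A second probe set of Cxcl1 gave the same order, with 90.01 and 2280.5 at 24 h and 112 and 147 at 14 d. Lcn2, an iron-chelator-binding protein of epithelium and neutrophils, read 1323 and 11847 at 24 h against 1677 and 1352 at 14 d, but its second probe set differed by -0.01 between the times (limma adjusted p = 0.99). Saa3 read 477 and 6917 at 24 h, against 341 and 691 at 14 d. S100a8 read 1954 and 11471 at 24 h, against 1838 and 1473 at 14 d, and array b was above the highest value of the 20 arrays outside the comparison (6753). Acod1, which makes itaconate in activated macrophages, read 32.1 and 2695 at 24 h, against 32.5 and 158 at 14 d.

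The metallothioneins followed the same order of arrays. Mt1 read 1434 and 8553 at 24 h and 1012 and 893 at 14 d. Mt2 read 1277 and 8942 at 24 h and 1308 and 1077 at 14 d. For Mt1 the groups did not overlap, and for Mt2 array a lay within the 14 d pair. The differences were 1.80 (SE 0.53, limma adjusted p = 0.099) for Mt1 and 1.46 (SE 0.57, limma adjusted p = 0.22) for Mt2, and neither was called.

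None of these acute genes was called between the times. S100a8 differed by 1.48 (SE 0.56, limma adjusted p = 0.20), Cxcl1 by 1.52 (SE 0.82, limma adjusted p = 0.39), Ccl2 by 1.69 (SE 0.72, limma adjusted p = 0.26) and Il1b by 1.13 (SE 0.70, limma adjusted p = 0.46).

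**Figure D1:**
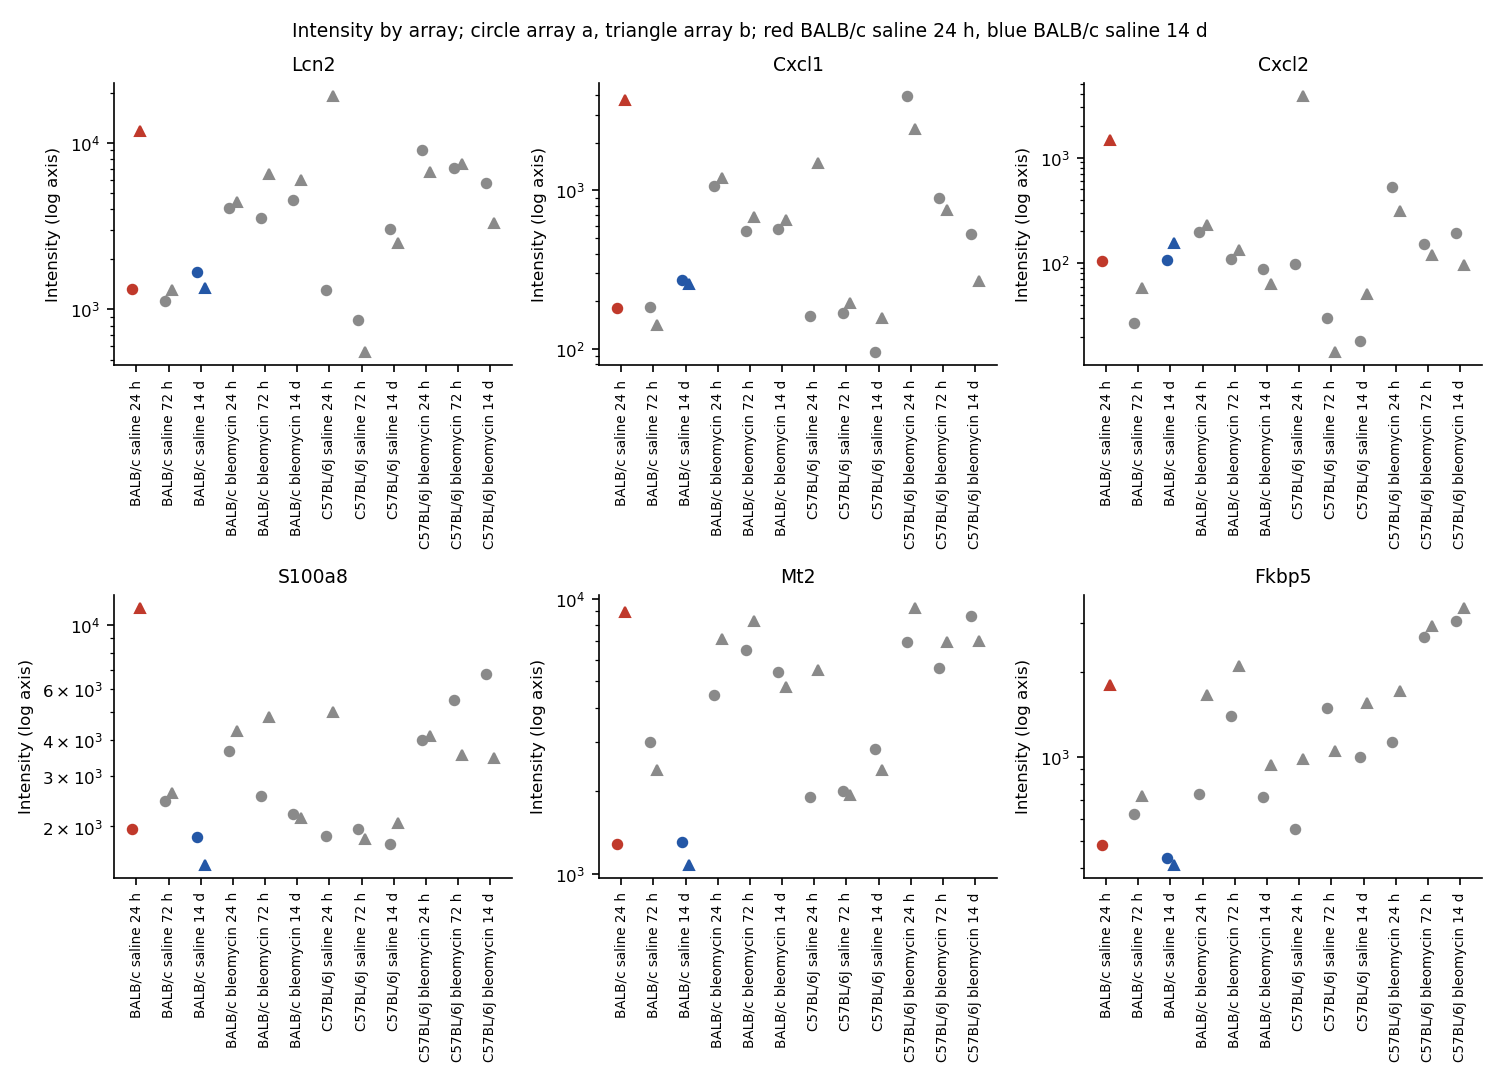
Intensity on a log axis for 6 genes on all 24 arrays, grouped by strain, treatment and time; circles are array a, triangles array b, red is BALB/c saline 24 h and blue BALB/c saline 14 d. In each panel the red triangle stands far above the red circle, which lies near the blue points (Lcn2: 11847 against 1323, with 1677 and 1352 at 14 d).

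A pair split in the same direction was present in the other strain. On the C57BL/6J saline arrays of 24 h, Lcn2 read 1301 on array a and 19139 on array b, Cxcl2 read 97.8 and 3839, and Saa3 read 359.7 and 25728. Of the 25 genes chosen on the BALB/c pair, 25 were also higher on array b of the C57BL/6J pair and 19 by more than 1 on the log2 scale, with a median of 1.83. Over all probe sets, array b exceeded array a by more than 1 on 157 in BALB/c and on 191 in C57BL/6J. The 48 probe sets found in both made up 30.6% of the BALB/c set and 25.1% of the C57BL/6J set, while the C57BL/6J set was 2.19% of all probe sets tested. No array is common to both pairs. Over all probe sets, the a minus b differences of both strains correlated at r = 0.15 at 24 h and 0.005 at 14 d. What set the b arrays apart from the a arrays was not tested.

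Other genes were lower on array b. T and natural killer cell markers had a median of -0.77 for array b minus array a over 15 genes, 13 of them lower on b. Cd2, an adhesion receptor of T cells, read 321 on array a and 60.8 on array b, against 324 and 323 at 14 d. Over all 6464 genes the median of array b minus array a was -0.03, with 2948 genes higher on b. Other lists also had medians well under 0, among them heart and skeletal muscle genes (-0.49 over 26) and fat genes (-0.54 over 6). In whole lung, fewer cells of a type and less RNA per cell cannot be told apart.

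Counted by list, the acute genes lay high on array b alone. For 11 neutrophil genes the median difference from the mean of 14 d was -0.09 on array a and 1.12 on array b. For 17 acute phase and epithelial defence genes it was -0.17 and 1.25, and for 24 cytokine and chemokine genes 0.03 and 0.63. The 22 genes known to respond to glucocorticoids gave 0.15 and 0.71. Over all genes the medians were 0.01 on array a and -0.03 on array b, so array a resembled 14 d for these lists and array b did not. The 2 arrays of 14 d differed from each other by a median of 0.08 for the neutrophil list and -0.05 for the acute phase list.

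**Figure D2:**
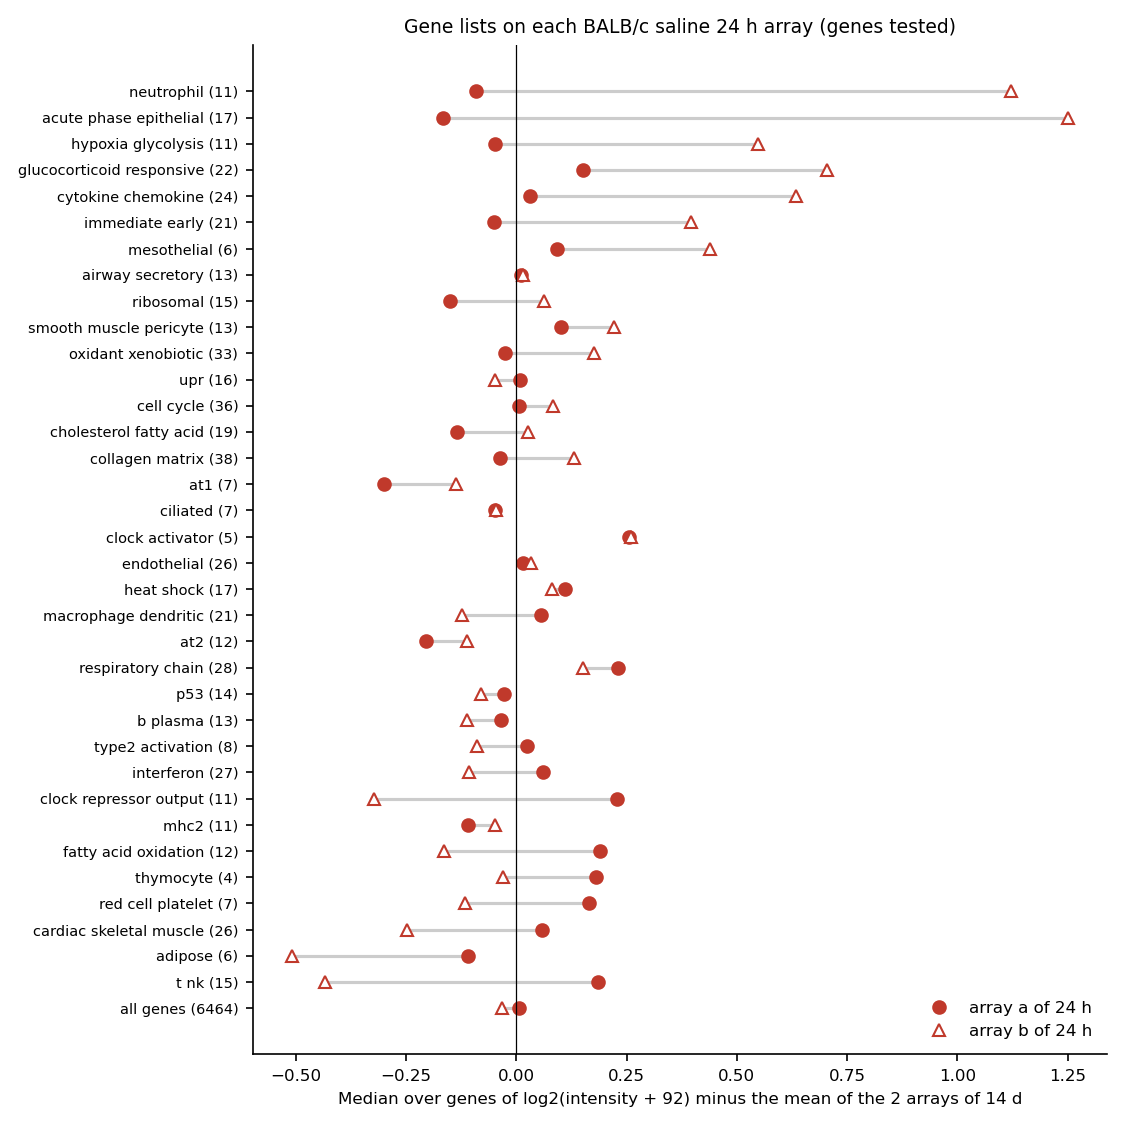
Median over the genes of each list of log2(intensity + 92) minus the mean of the 2 arrays of 14 d, for array a (filled circle) and array b (open triangle) of BALB/c saline 24 h; the number of genes tested is in brackets. The neutrophil and acute phase lists are spread widest (-0.09 and 1.12, -0.17 and 1.25), while airway, ciliated and endothelial lists have both arrays near 0.

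Taken as group means, 0 of 11 neutrophil, 0 of 17 acute phase and 0 of 24 cytokine genes were called. The share of all genes called was 0.866% for higher at 24 h (56 of 6464) and 0.248% for lower (16 of 6464). At an unadjusted p under 0.05, 3 neutrophil, 1 acute phase and 2 cytokine genes were higher, where 8.62% of all genes were. The list medians between the times were 0.82, 0.48 and 0.45, against -0.02 over all genes. The glucocorticoid list had a median of 0.48, with 19 of 22 genes above 0 and 1 called (Map3k6). Its other leading members missed the threshold, among them Nfkbia, the inhibitor of NF-kappaB, at 1.12 (SE 0.31, limma adjusted p = 0.081) and Pdk4, a kinase of pyruvate dehydrogenase, at 0.68 (SE 0.22, limma adjusted p = 0.13). Fkbp5, a chaperone of the glucocorticoid receptor, read 486 on array a and 1796 on array b, against 434 and 412 at 14 d.

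Both arrays of 24 h stood apart from the series in ribosomal RNA. Control probe sets for 18S ribosomal RNA, which were not tested, read 9068 and 8734 (3' probe set), 7875 and 2116 (5' probe set) and 5599 and 2002 (middle probe set) on arrays a and b of 24 h. The arrays of 14 d read 640.2 and 773, 118 and 109, and 57.8 and 41.2. The highest values among the 20 arrays outside the comparison were 1235, 280.5 and 216, so the 24 h pair lay above all other arrays of the series on each probe set. The ratio of the 3' to the 5' probe set of Gapdh, a measure of how intact the RNA was, lay between 0.71 and 0.76 on the 4 arrays. The part of ribosomal RNA in the differences below was not tested.

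**Figure D3:**
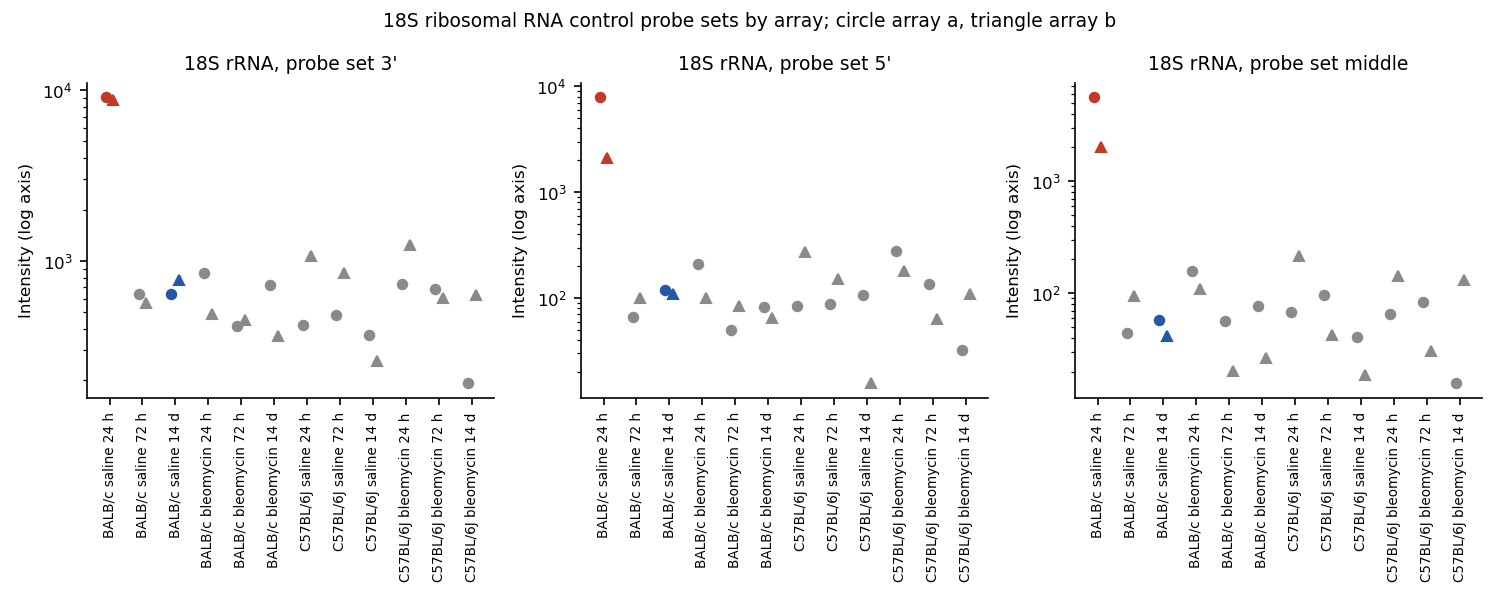
Intensity on a log axis of 3 control probe sets for 18S ribosomal RNA on all 24 arrays; circles are array a, triangles array b. The red points, BALB/c saline 24 h, lie between 2002 and 9068, and no other array passes 1235.

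Between the times, 110 of 8710 probe sets were called (1.26%), 76 higher and 34 lower at 24 h, and 1371 had an unadjusted p under 0.05. The count rested on the arrays compared: without array a of 24 h it was 127, of which 56 were among the 110, without array b of 24 h it was 18, without array a of 14 d 18, and without array b of 14 d 2. At the level of genes, 56 were higher and 16 lower at 24 h. The genes described are the 15 highest and the 15 lowest of these. Of these 30, 18 stayed called without array a of 24 h, 5 without array b of 24 h, 6 without array a of 14 d and 1 (Lsm2) without array b of 14 d. Gas1, Itgb4, Ptpn1 and Uqcrc2 stayed called in 3 of these 4 fits, 11 of the 30 in none, and no gene in all 4.

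Among the highest were genes of receptors and signalling. Csf2rb, the shared receptor chain for interleukin 3, interleukin 5 and GM-CSF, read 738 and 926 at 24 h against 155 and 149 at 14 d, a difference of 1.91 (SE 0.45, limma adjusted p = 0.043). Tyro3, a receptor kinase that takes part in clearing dying cells, read 226 and 316 against 21.5 and 17.0, a difference of 1.70 (SE 0.31, limma adjusted p = 0.011). Both receptors were separated without overlap, as were 52.3% of all probe sets. Of the 15 highest genes, 9 had both 14 d values under the filter of 225.7, and for Itgb4, Map3k6, Mast2 and Tyro3 both also lay under the lower quartile of their arrays (101.4 and 103.4). Against such dim values the size of a difference depends on the offset: that of Tyro3 was 2.27 with the offset halved and 0.89 with it 3 times larger, and that of Itgb4 1.86 and 0.92, while that of Ptpn1 was 1.23 and 1.14. Sphk1, the kinase that makes sphingosine 1-phosphate, read 591 and 971 against 255 and 203, a difference of 1.41 (SE 0.21, limma adjusted p = 0.0028). Ptpn1, a phosphatase of tyrosine kinase receptors, read 3682 and 5413 against 1945 and 1813, a difference of 1.21 (SE 0.17, limma adjusted p = 0.0028). Map3k6, a stress-activated kinase, was higher at 24 h by 1.87 (SE 0.45) and only just passed the threshold (limma adjusted p = 0.0498).

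Genes of adhesion, polarity and transcription followed. Itgb4, the integrin chain that anchors basal epithelial cells, read 454 and 320.0 at 24 h against 80.9 and 63.7 at 14 d, a difference of 1.53 (SE 0.23, limma adjusted p = 0.0036). Klf2, a transcription factor of endothelium and resting lymphocytes, read 451 and 573 against 89.8 and 165, a difference of 1.48 (SE 0.28, limma adjusted p = 0.015). In Klf2 the 14 d values still lay within the span of the other 20 arrays (65.1 to 1679). Pard6a, a cell polarity protein, was higher at 24 h by 1.14 (SE 0.26, limma adjusted p = 0.038), with 249 and 310.0 at 24 h and 137 and 31.9 at 14 d.

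Other genes among the 15 highest act in mitochondria, DNA replication and RNA processing. Timm13, a chaperone of mitochondrial import, read 5077 and 5646 at 24 h against 1861 and 2121 at 14 d, a difference of 1.39 (SE 0.23, limma adjusted p = 0.0071). Pold2, a subunit of DNA polymerase delta, was higher at 24 h by 1.30 (SE 0.21, limma adjusted p = 0.0066), and Lsm2, of the U6 small nuclear RNA complex, by 1.28 (SE 0.22, limma adjusted p = 0.0071). The 2 arrays of 14 d disagreed for Lsm2 (89.5 and 251). The tubulin folding cofactor Tbcb, the kinase Mast2, the ATP-binding protein Abcf2 and the ubiquitin ligase adaptor Asb6 were higher at 24 h by 1.28 to 1.38.

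Genes of the proteasome, the complex that degrades ubiquitinated protein, were picked out after the values were seen and carry no test as a group. Of 38 genes with symbols Psma to Psmf, 4 were called higher, 0 lower and 31 lay above 0, with a median of 0.28. Over all 6464 genes, 0.866% were called higher, 0.248% lower and 47.5% lay above 0, with a median of -0.02. Psmd4, a ubiquitin receptor of the complex, read 2928 and 2874 at 24 h against 1589.8 and 1283 at 14 d, a difference of 0.98 (SE 0.19, limma adjusted p = 0.015). Psma6 was higher at 24 h by 0.96 (SE 0.21, limma adjusted p = 0.032), and Psmd13 and the activator Psme1 were the other called members. The medians of the same 38 genes were -0.16 in C57BL/6J after saline and -0.17 in BALB/c after bleomycin.

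Among the genes lower at 24 h, Gas1, a membrane protein that acts in Hedgehog signalling and growth arrest, read 807 and 986 at 24 h against 2982 and 2943 at 14 d. The difference was -1.63 (SE 0.23, limma adjusted p = 0.0028). Uqcrc2, a core subunit of respiratory complex III, read 1619 and 1555 against 3035 and 3304, a difference of -0.96 (SE 0.14, limma adjusted p = 0.0028). Another subunit of the same complex, Uqcr10, was called in the other direction, higher at 24 h by 0.74 (SE 0.18, limma adjusted p = 0.049). Ddx5, an RNA helicase, read 2741 and 2713 against 6282 and 6124, a difference of -1.16 (SE 0.25, limma adjusted p = 0.027). Each of these pairs was tight, and the groups were far apart relative to it.

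The difference was -1.22 for the Golgi protein Yipf4, -0.79 for the splicing factor Rbm25, -0.97 for the kinesin Kif1c and -0.91 for the lipid-droplet enzyme Hsd17b11. The sulfotransferase Chst2 was lower at 24 h, with a difference of -1.18 (SE 0.28, limma adjusted p = 0.044), but a second probe set differed by -0.14 (limma adjusted p = 0.84). Gatd3a, Tex2, Riox2, Bex6, Hmgn5, Tspyl1 and Myef2 completed the 15, with differences of -1.44 to -0.76.

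**Figure D4:**
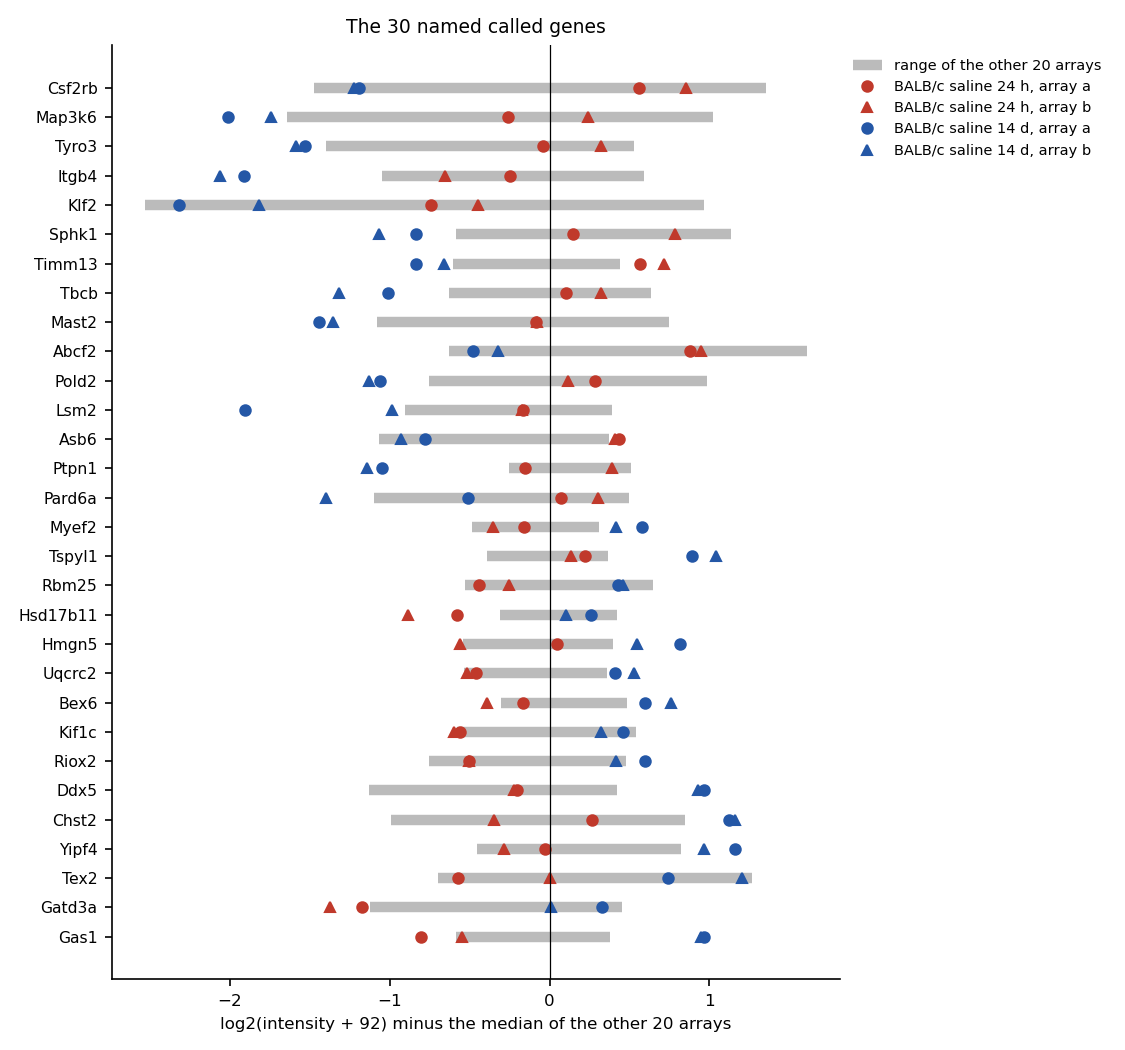
Intensities of the 30 named called genes as log2(intensity + 92) minus the median of the 20 arrays outside the comparison; red is 24 h, blue 14 d, circles array a, triangles array b, and grey bars span the other 20 arrays. For 19 of the 30 genes both blue points lie outside the grey bar, and for 4 both red points do.

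Set beside the rest of the series, the pair of 14 d was the unusual one for most called probe sets. Both arrays of 14 d lay beyond all 20 arrays outside the comparison on 64 of the 110 (58.2%), against 8.22% of all probe sets, and both arrays of 24 h did on 14 (12.7%), against 1.81% of all. Without the 4 saline arrays of 72 h among those set beside them, the counts were 70 for 14 d (63.6%, against 10.4% of all) and 17 for 24 h (15.5%, against 2.58% of all). The 14 d mean was farther than the 24 h mean from the median of the other 20 on 88 of the 110 (80.0%), against 63.5% of all probe sets. For Ptpn1 the 14 d arrays (1945 and 1813) lay under the lowest of the other 20 (3439.5), with the 24 h arrays inside their range. For Gas1 the 14 d arrays (2982 and 2943) lay over the highest (1952). Timm13, Gatd3a, Hsd17b11 and Asb6 were the genes among the 30 with both 24 h arrays outside. These positions are descriptions, and probe sets called for a difference of these 2 pairs have at least 1 pair displaced more often by their choice.

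Over all probe sets, the BALB/c saline pair of 14 d lay beyond the other 22 arrays on 588, 289 above and 299 below. The other 11 groups had 84 to 471, and the 24 h pair had 97. The 2 arrays of 14 d resembled each other closely, with a Pearson r of 0.978 over probe sets, which are not independent, and a median absolute log2 difference of 0.13, against 0.950 and 0.23 for the pair of 24 h. More than 1 log2 unit separated the arrays of a pair on 98 probe sets at 14 d and on 260 at 24 h. Array a of 24 h resembled the arrays of 14 d (median absolute log2 differences 0.24 and 0.24) about as well as it resembled array b of its own group (0.23).

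No clock gene was called between the times. Of the 16 tested, each on its brightest probe set, 0 passed, where 0.866% of all genes were called higher and 0.248% lower. On these probe sets 1 gene (Cry1) had an unadjusted p under 0.05, and the smallest adjusted p was 0.28 (limma). Differences ran from -0.38 to 0.50, and in 12 of the 16 the 2 arrays of a time differed from each other by more than the times did. The groups did not overlap for 6 of the 16, where 52.3% of all probe sets did not overlap. Dbp, the output factor with the widest daily swing in many tissues, read 1037 and 479 at 24 h and 929.7 and 408 at 14 d. Array a exceeded array b by 0.98 at 24 h and by 1.03 at 14 d, so the pairs overlapped, with a difference between the times of 0.17 (SE 0.41, limma adjusted p = 0.88).

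Arntl, the activator that peaks in antiphase to Dbp, read 372 and 374 at 24 h and 326 and 271 at 14 d, a difference of 0.26 (SE 0.18, limma adjusted p = 0.52). Cry1, a repressor that acts late in the cycle, read 764 and 1044 against 729 and 501, a difference of 0.50 (SE 0.22, limma adjusted p = 0.28). The repressors Nr1d1 and Nr1d2 read 2079 and 1337, and 2115 and 1167, on arrays a and b of 24 h, and 1561 and 1426, and 1854 and 1487, at 14 d. In both, array a of 24 h was the brightest and array b of 24 h the dimmest of the 4. Nr1d1 differed by 0.15 (SE 0.25) and Nr1d2 by -0.07 (SE 0.21).

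Per1, which also answers glucocorticoids, read 836 and 1132 at 24 h against 725 and 631 at 14 d, without overlap (0.47, SE 0.35, limma adjusted p = 0.55). Per2 (-0.21) and Per3 (-0.35) were lower at 24 h without passing, and Tef (0.16), Bhlhe40 (0.41), Usp2 (0.44), Nfil3 (0.35) and Rora (0.16) were higher without passing. A second probe set of Nfil3 read 149 and 280 at 24 h against 93.7 and 89.6 at 14 d, without overlap. Its difference was 0.71 (SE 0.24, limma adjusted p = 0.15), and a second probe set of Usp2 gave -0.01. Wee1 (-0.38), Cry2 (-0.27) and Clock (-0.15) were lower without passing. The E-box CACGTG, the element that Arntl and Clock bind, was present in the windows of 3 of the 13 clock genes with a promoter in the table (Cry1, Per1 and Tef), against 7.15% of all windows of 300 bases.

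**Figure D5:**
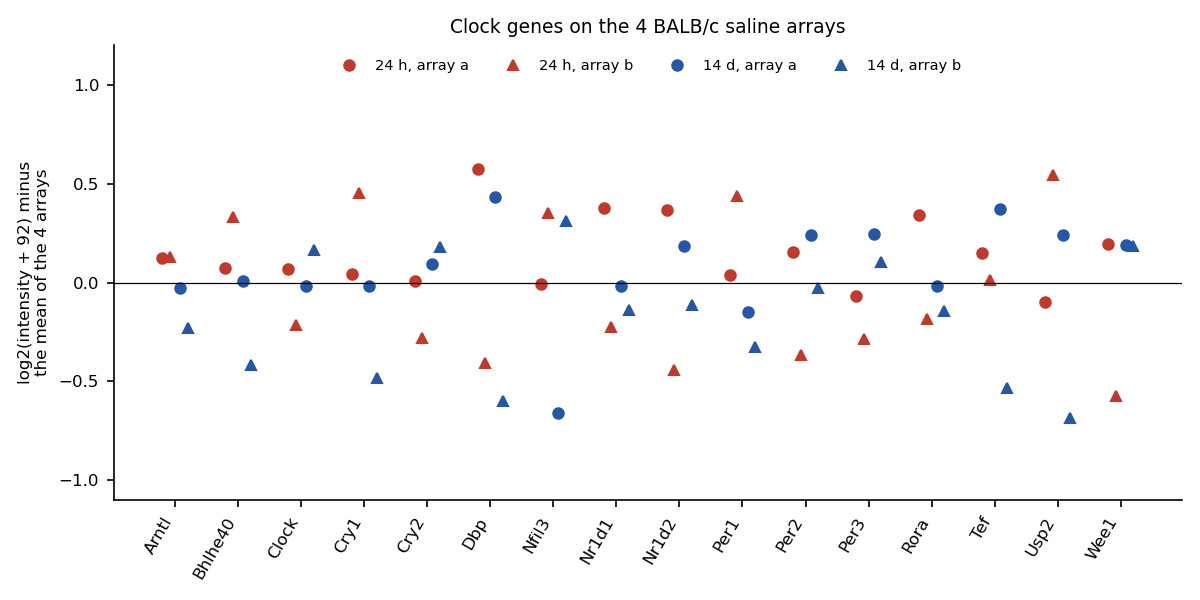
log2(intensity + 92) of the 16 clock genes on the 4 arrays, minus the mean of the 4; red is 24 h, blue 14 d, circles array a, triangles array b. Circles and triangles of a colour are often as far apart as the colours are, for Dbp by 0.98 at 24 h and 1.03 at 14 d.

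Clock genes were called between 24 h and 14 d in other groups. In C57BL/6J after saline, where 226 of 6464 genes were called (3.5%), Arntl was lower at 24 h than at 14 d, with a difference of -1.15 (SE 0.18, limma adjusted p = 0.0055). Dbp was higher at 24 h by 1.68 (limma adjusted p = 0.034) and Per2 by 0.998 (limma adjusted p = 0.039). The 24 h minus 14 d difference of Arntl differed between the strains, BALB/c minus C57BL/6J, by 1.41 (limma adjusted p = 0.014), while that of Dbp was -1.51 (limma adjusted p = 0.16) and that of Per2 -1.21 (limma adjusted p = 0.072). In BALB/c after bleomycin, where 7.63% of genes were called, Arntl was lower at 24 h than at 14 d, with a difference of -0.92 (limma adjusted p = 0.0075), and Nr1d1 and Nr1d2 were higher at 24 h by 0.95 and 0.81 (limma adjusted p = 0.028 and 0.025). The bleomycin comparison has no array in common with the saline comparison. The hour at which lungs were taken is not given in the labels used here.

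Stress and immediate early genes gave single calls, where 0.866% of all genes were called higher at 24 h. Klf2 was the 1 called of 21 immediate early genes, and Junb, a subunit of the AP-1 factor, read 751 and 1841 at 24 h against 273 and 514 at 14 d. Its difference of 1.44 (SE 0.36) missed the threshold (limma adjusted p = 0.058), and a second probe set gave 0.44. Hspe1, the small chaperonin of mitochondria, was the 1 called of 17 heat shock genes. It read 2973 and 3269 at 24 h against 1777 and 1857 at 14 d, a difference of 0.75 (SE 0.15, limma adjusted p = 0.022). Its partner Hspd1 differed by 0.91 (SE 0.26, limma adjusted p = 0.087) on 1 probe set and by -0.29 on another.

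Among 33 oxidant and xenobiotic response genes, 1 was called, higher at 24 h, where 0.866% of all genes were called higher. Gsto1, a glutathione transferase, read 2034 and 2176 at 24 h against 1044 and 1000.3 at 14 d, a difference of 0.98 (SE 0.13, limma adjusted p = 0.0028). Here again the 14 d arrays lay under the lowest of the other 20 (1849). Gsr, glutathione reductase, differed by -0.67 (SE 0.17, limma adjusted p = 0.064) and Gstp1 by 0.60 (SE 0.16, limma adjusted p = 0.078).

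Of 28 respiratory chain genes in the list, which does not hold Uqcr10, 1 was called lower (Uqcrc2) and 0 higher. Of all genes, 0.248% were called lower and 0.866% higher. At an unadjusted p under 0.05, 10 of the 28 were higher and 1 lower, 20 lay above 0 and the median was 0.12. Over all 6464 genes, 557 (8.62%) were higher and 469 lower at that threshold, 47.5% lay above 0 and the median was -0.02. Ndufb9 (0.64, limma adjusted p = 0.081) and Ndufa5 (0.63, limma adjusted p = 0.088), subunits of complex I, had the smallest p of the genes in the list that did not pass. Of 16 unfolded protein response genes 0 were called. Manf, a secreted chaperone, differed by 0.79 (limma adjusted p = 0.064) and Pdia4 by -0.86 (limma adjusted p = 0.090).

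Cell type markers gave 0 calls in each list: 12 genes of alveolar type 2 cells, 7 of type 1 cells, 13 of secretory and 7 of ciliated airway cells, 26 of endothelium, 13 of smooth muscle and pericytes, 21 of macrophages and dendritic cells, 13 of B and plasma cells, 15 of T and natural killer cells and 6 of mesothelium. Of all genes only 0.866% were called higher and 0.248% lower, so 0 calls in lists of this size say little. The list medians lay between -0.18 and 0.22. Foxj1, the ciliated cell factor, read 809 and 822 at 24 h against 929 and 1137 at 14 d. Ager, the type 1 cell receptor, read 2248 and 5867 against 6765 and 6178, and Sftpb 2295 and 7467 against 5243 and 3645. In Ager and Sftpb array a of 24 h was the lowest of the 4, and the differences were -0.81 (SE 0.84) and -0.07 (SE 0.81).

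Markers of neighbouring tissues gave no call either, where 0.866% of all genes were called higher and 0.248% lower. Heart markers were present on the 4 arrays. Myh6, a myosin chain of heart, read 2943 and 1928 at 24 h and 2145 and 2142 at 14 d. The summed intensity of 26 heart and skeletal muscle genes was 30234 and 21787 at 24 h and 27421 and 26392 at 14 d, with 0 called and a median of -0.08. Fat markers had a median of -0.33 over 6 genes, with Adipoq at 310.4 and 166 against 418 and 275. The thymus genes Rag1 (319.5 and 864, against 580.5 and 554) and Dntt differed by -0.07 and 0.43. Their part in other results was not tested.

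Genes linked to fibrosis and injury did not pass. Col1a1, the main fibrillar collagen chain, read 3956 and 3562 at 24 h against 2668 and 3090.3 at 14 d (0.38, SE 0.29, limma adjusted p = 0.56), and a second probe set gave -0.61. Timp1, an inhibitor of matrix proteases, read 2771 and 8088 against 3058 and 2856, again with array b alone high. Cdkn1a, the p53-induced cell cycle inhibitor, read 482 and 1194 against 542 and 566 (0.41, SE 0.27, limma adjusted p = 0.49). A second probe set of Cdkn1a read 703 and 1420 against 548 and 679 (0.64, SE 0.31, limma adjusted p = 0.32). Acta2, smooth muscle actin, read 2303 and 3596 against 1899 and 1813 (0.61, SE 0.28, limma adjusted p = 0.31). In addition 0 of 38 collagen and matrix, 0 of 36 cell cycle, 0 of 14 p53 target, 0 of 27 interferon and 0 of 15 ribosomal protein genes were called. Such zeros say little where only 0.866% of all genes were called higher and 0.248% lower.

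The comparison was set beside the same times in C57BL/6J, where 320 of 8710 probe sets were called (3.67%), 162 higher and 158 lower. That comparison includes the C57BL/6J saline arrays of 24 h, whose highest intensities were 78641 and 43230 against at most 21462 on the other arrays of the series, and whose titles end in s1 where those of the other saline arrays end in s2. Of the 56 genes higher at 24 h in BALB/c, 18 had the same sign in C57BL/6J, 1 was called the same way and 4 the opposite way, and their median was 0.93 in BALB/c and -0.10 in C57BL/6J. Of the 16 lower genes, 8 had the same sign and 0 were called in C57BL/6J. The difference between strains was called on 224 probe sets (2.57%). It shares its BALB/c arrays with the main comparison.

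For single genes the 24 h minus 14 d differences differed between strains by the interaction test. The genes given here were called on the BALB/c arrays that enter this test, and that choice favours a large difference. Pold2 was higher at 24 h by 1.30 in BALB/c and lower at 24 h in C57BL/6J, at -0.83 (limma adjusted p = 0.040), a difference of 2.12 (SE 0.30, limma adjusted p = 0.0033). Abcf2 was higher at 24 h by 1.32 in BALB/c and lower at 24 h in C57BL/6J, at -1.11 (limma adjusted p = 0.048), a difference of 2.43 (SE 0.43, limma adjusted p = 0.014). Gas1 differed by -1.63 in BALB/c and by 0.08 in C57BL/6J, a difference of -1.72 (SE 0.33, limma adjusted p = 0.016).

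After bleomycin in BALB/c, 667 probe sets were called between 24 h and 14 d (7.66%), 296 higher and 371 lower at 24 h. Of the 56 genes higher at 24 h after saline, 22 had the same sign after bleomycin, with 2 called the same way and 4 the opposite way. Klf2 was higher at 24 h after bleomycin too, by 1.44 (SE 0.28, limma adjusted p = 0.0075). Lsm2 was higher at 24 h after saline, by 1.28, and lower at 24 h after bleomycin, at -1.19 (limma adjusted p = 0.0051). Mast2 was higher at 24 h after saline, by 1.32, and lower at 24 h after bleomycin, at -1.095 (limma adjusted p = 0.022). The difference between saline and bleomycin was not tested.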

How the data were processed

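Total RNA of 24 lung samples was measured on Affymetrix arrays. The authors deposited intensities on a linear scale; how they summarised oligonucleotides is not stated in the labels. Each array's mean, trimmed at percentiles 2 and 98, was 796.5 to 800.7, so no further scaling was applied. Of 12488 probe sets, 66 controls were left out, and those above 225.7 (40th percentile) on at least 2 arrays were tested: 8710. Names came from the platform annotation, updated through RefSeq identifiers for 10817 of 10833 one-name probe sets. A gene is its brightest one-name probe set (6464 genes). limma 3.58.1 (R 4.3.3) fitted 12 group means to log2(intensity + 92) with a variance trend and 12 residual degrees of freedom, tested on simulated data; tests are two-sided. The number of arrays limits the precision. Named genes were the 15 highest and 15 lowest called genes, the clock genes, up to 4 genes of smallest p per list, and Col1a1, Timp1, Cdkn1a and Acta2; others were chosen after their values were seen. Members, lists and tests were chosen with earlier results of these data known. Alternatives are in the closing section.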

Additional observations from a re-analysis of the deposited data

Results flagged for a closer look

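The 3 control probe sets for 18S ribosomal RNA lie outside the tested table and were higher at 24 h than at 14 d by 12.6-fold (3'), 36.1-fold (5') and 68.6-fold (middle), with the 24 h pair above all other arrays. They took no part in the fit, and the cause was not tested.

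For 17 of the 30 named genes the difference of 24 h minus 14 d differed between BALB/c and C57BL/6J by the interaction term (limma adjusted p under 0.05). Over all 6464 genes, 171 did. The difference, BALB/c minus C57BL/6J on the log2 scale, was 3.10 for Map3k6, 2.43 for Abcf2, 2.12 for Pold2, 1.95 for Sphk1, 1.94 for Pard6a, 1.86 for Tyro3, 1.84 for Itgb4, 1.65 for Tbcb, 1.63 for Lsm2, 1.49 for Asb6, 1.45 for Timm13 and 1.04 for Ptpn1. It was -2.10 for Tex2, -1.72 for Gas1, -1.55 for Gatd3a, -1.26 for Bex6 and -1.22 for Riox2. The named genes were chosen on the BALB/c arrays that enter this term.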

How the results depend on the processing

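The 110 probe sets called between 24 h and 14 d became 181 with quantile normalization (107 shared), 326 with array weights, 30 with saline arrays only and 0 in limma when the 4 arrays were fitted alone, where 1659 had an unadjusted p under 0.05. Offsets, filters, the variance trend and the other choices of arrays gave 88 to 141. Leaving out each array compared gave 2 to 127. For C57BL/6J the 320 became 142 with quantile normalization, 105 with array weights and 177 once the 72 h saline arrays were dropped, and 62 to 222 without each array. The 224 of the strain difference became 129 with saline arrays only, and 15 to 257 without each array. The 667 after bleomycin became 303 with array weights, and 58 to 1267 without each array. The causes were not tested. Array letters were not taken as pairs between 24 h and 14 d, where their deviations correlated at 0.02, although between the strains at 24 h they correlated at 0.15. A replicate block gave 97 calls, 94 of them among the 110, and 188 for the strain difference. Letters deviated in opposite directions after bleomycin (-0.25), where the replicate block gave 650 calls and 742 with letters crossed, a fit chosen after seeing the data. None of the 30 named genes changed sign; of 506 results by gene and setting 335 stayed called and 171 did not, and 0 of the 30 stayed called without each of the 4 arrays. Averaging all probe sets of a gene kept the count of 35 of 36 lists; the glucocorticoid list then had 0 called, and the neutrophil median was 0.68.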
